A study of Mus musculus with 6 samples.

Results

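Acetylation of histone 3 lysine 27 (H3K27ac), a mark of active promoters and enhancers, was examined at 9 genes that govern mitochondrial biogenesis in muscle: Ppargc1a, Ppargc1b, Pprc1, Perm1, Esrra, Esrrb, Esrrg, Nrf1 and Tfam. Their regions were all peaks, promoter and distal, that carried the name of 1 of these genes as the gene with the nearest transcription start site (TSS) in the deposited peak annotation. This gave 33 of the 46988 peaks in control quadriceps and 34 of the 40721 peaks in detrained quadriceps. The nearest TSS is a label of position and does not show which gene a distal peak acts on. The mice were wild-type C57BL/6 males (substrain C57BL/6J in the study's methods), housed singly, and aged 8 weeks at the start of the 4-week period. Control mice had no wheel, whereas detrained mice ran voluntarily on a wheel for those 4 weeks and then rested for 72 hours before harvest. The study asked with these mice whether acetylation changes of training last after the wheel is taken away. Each group had 2 H3K27ac libraries, each from a single quadriceps muscle of 1 animal, and 1 input library. The control libraries are called C2 and C3 and the detrained libraries Ex1 and Ex2.

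The PGC-1 coactivators, encoded by Ppargc1a, Ppargc1b and Pprc1, do not bind DNA themselves but are recruited by transcription factors, among them the estrogen-related receptors encoded by Esrra, Esrrb and Esrrg and the nuclear respiratory factor encoded by Nrf1. Together these proteins switch on nuclear genes for respiration and fatty acid oxidation, and they act on Tfam, whose protein packages, transcribes and maintains mitochondrial DNA. Perm1 is a muscle protein induced by PGC-1 and ERR proteins that promotes oxidative capacity. In skeletal muscle Ppargc1a is known to be induced by contraction from a proximal promoter and from an alternative promoter further upstream.

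The promoters of Ppargc1a, Esrra and Tfam are shown because each held a match to the binding motif of a factor from this same circuit or from the signalling that drives it. Each line gives the 250 bases before the TSS, read 5′ to 3′ on the strand of the gene, from the RefSeq assembly GRCm38.p6, whose coordinates are those of mm10. Capitals mark matches on either strand to the cAMP response element TGACGTCA, its 5-base half-site TGACG, the NRF1 core GCATGCGC or the ETS motif CCGGAAGT bound by GABP. The half-site is part of the full element, so the 2 can overlap.
Ppargc1a proximal promoter, chr5:51553922-51554171, minus strand: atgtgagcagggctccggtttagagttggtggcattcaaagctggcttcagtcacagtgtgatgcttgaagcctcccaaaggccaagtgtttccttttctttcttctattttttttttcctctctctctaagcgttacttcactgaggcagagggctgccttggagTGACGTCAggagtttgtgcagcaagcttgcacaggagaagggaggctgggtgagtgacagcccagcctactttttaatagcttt
Ppargc1a upstream promoter, chr5:51567726-51567975, minus strand: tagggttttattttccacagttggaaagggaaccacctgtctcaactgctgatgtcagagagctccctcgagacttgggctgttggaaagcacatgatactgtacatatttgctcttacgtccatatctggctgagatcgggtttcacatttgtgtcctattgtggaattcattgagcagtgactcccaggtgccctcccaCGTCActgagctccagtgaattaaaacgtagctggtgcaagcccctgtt
Esrra promoter, chr19:6921809-6922058, minus strand: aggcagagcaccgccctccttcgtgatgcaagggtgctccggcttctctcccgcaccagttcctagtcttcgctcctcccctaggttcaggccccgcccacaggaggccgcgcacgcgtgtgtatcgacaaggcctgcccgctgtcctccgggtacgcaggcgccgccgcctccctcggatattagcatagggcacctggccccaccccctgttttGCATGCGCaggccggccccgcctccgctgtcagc
Tfam promoter, chr10:71238045-71238294, minus strand: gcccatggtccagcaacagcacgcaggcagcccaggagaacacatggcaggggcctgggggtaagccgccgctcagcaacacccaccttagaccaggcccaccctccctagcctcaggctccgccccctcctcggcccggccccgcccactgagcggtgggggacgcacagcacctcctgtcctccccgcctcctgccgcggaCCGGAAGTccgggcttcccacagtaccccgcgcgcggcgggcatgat

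The proximal Ppargc1a promoter held a full cAMP response element, the site through which CREB is known to act on this gene, beginning 84 bases before the TSS. This element was in 1.55% of the 32851 promoters of the RefSeq table when the same 250 bases were searched. The upstream promoter held the half-site alone, 49 bases before its TSS, and 17.8% of all promoters held that half-site. Esrra held the NRF1 core 34 bases before its TSS, a motif present in 2.26% of promoters. Tfam held the ETS motif 47 bases before its TSS, and 2.88% of promoters held it. The ERR element TCAAGGTCA, the E-box CAGCTG and the MEF2 consensus were also searched. The half-site was also found at 2 places before the marked TSS of Esrrb. No ERR element lay in these windows of any member, and 0.387% of all promoters held it. The E-box was found before 1 unmarked Esrrb TSS (4271 of the 32851 promoters). The MEF2 consensus was found before 1 TSS each of Esrrg and Nrf1 that no peak covered (2.92% of promoters). A match describes the letters and does not show binding.

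The ERR element lay instead further from the TSS, inside peaks of 3 members in both lists. The sites of Esrra and Ppargc1a are printed with 10 bases on either side and the element in capitals, read on the strand that holds it.
Esrra, 533 bp upstream of the TSS, chr19:6922337-6922345, plus strand: cggacaaaacTCAAGGTCActgcggtgac
Ppargc1a, 23744 bp downstream of the proximal TSS, chr5:51530173-51530181, plus strand: gattgcaactTCAAGGTCAtcttcggcta
The Esrra site was covered by the peak over its TSS, and the Ppargc1a site by the longest peak of that gene, in an intron. The remaining site was in the peak 16.2 kb upstream of Ppargc1b. A second Esrra site, 2063 bp downstream of the TSS, was covered in the detrained list alone, where the peak was longer. Across all member peaks there were 4.56 ERR elements per 100 kb in control and 4.95 in detrained, resting on 3 and 4 sites, compared with 3.02 and 3.08 per 100 kb over all listed peaks. Peaks holding the element were 3 of 33 and 3 of 34 member peaks (9.09% and 8.82%), and 6.02% and 6.81% of all peaks.

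Levels are given as tag density, meaning tags per kb of the called peak per 10000000 tags of the library, after adding 0.5 tags. Because the tables held pooled tags per peak and a log2 value for each library, a library's own tags were estimated by sharing the pooled tags between the 2 libraries of the group. The libraries held 20805019 to 22400894 tags and the inputs 10812470 in control and 21298438 in detrained. An estimated 44.7% to 49.4% of the tags of each library lay in listed peaks. The 2 tables were normalized separately and each group had 2 libraries, so no test between groups was made. Instead, groups are called separated where both detrained values exceeded, or both fell short of, each control value. The log2 values are shrunken within each table, so the difference between libraries of a group is understated at weak peaks. There the SDs are too small and separation is easier to reach. For 2 libraries a group, the smallest p that an exact two-sided permutation test can reach is 0.33.

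The tissue and its cell types were checked at the TSS peaks of fixed marker genes. A TSS was in a peak of both lists for 14 of 16 skeletal muscle markers (not Myh2 and Neb), and for none of 5 liver markers. The summed density of the muscle markers was 1040 and 1327 in control libraries C2 and C3, against 1209 and 1153 in Ex1 and Ex2. Thus C2 and C3 stood further apart at muscle genes than the detrained libraries did, with both detrained libraries between them. Of 8 macrophage and leukocyte markers, 3 had a TSS in a control peak (Csf1r, Lyz2 and Spi1) and 7 in a detrained peak, Adgre1 being in neither list. Their summed density was 116 to 126 in control and 231 to 259 in detrained libraries, a sum that takes in more listed peaks in detrained. At the 3 found in both lists, densities overlapped at Csf1r and Lyz2 and were lower in detrained at Spi1. The Spi1 peak was longer in detrained, 12210 against 6444 bp. Pooled tags, scaled to the library total, were higher in detrained at Csf1r (114.5 against 109.1), Lyz2 (42.9 against 26.5) and Spi1 (541.5 against 483.1). Endothelial markers had a TSS in a control peak for 7 of 8 and in a detrained peak for 8 of 8, with sums of 219 and 303 in C2 and C3, against 331 and 232 in Ex1 and Ex2. In control and detrained respectively, a TSS peak was listed for 6 and 5 of 6 fibroblast markers, 3 and 3 of 4 satellite cell markers, 2 and 2 of 7 adipocyte markers and 1 and 1 of 5 heart muscle markers. Of the 4 fibroblast markers in a shared peak, 3 (Col1a1, Col1a2 and Pdgfra) were higher in both detrained libraries and none lower, with a median log2 ratio of 0.18. Over all genes with a TSS in a shared peak, 22.7% were higher and 30.2% lower. Outside shared peaks, the density of Thy1 was lower in both detrained libraries. The Thy1 peak was longer in detrained (3319 against 1494 bp), and its pooled tags were higher there, 87.4 against 49.6. Lum had a TSS peak in control alone. The summed fibroblast density was 249.6 and 245.9 in control and 227.8 and 227.4 in detrained. The part of cell composition in the differences described below was not tested, and in whole muscle more acetylation per nucleus and more nuclei of a given type cannot be told apart.

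A TSS of each of the 9 genes lay inside an H3K27ac peak in both lists, although the peak over the Ppargc1b TSS carried another name. The density in control mice ranged from Nrf1, above 98.5% of the 12407 genes with a TSS in a control peak, down to Esrrb, above 6.42% of them. In descending order of the control geometric mean, the densities were 142 for Nrf1, 105 for Esrra, 101 for Pprc1, 99.96 for Ppargc1b, 72.9 for the proximal TSS of Ppargc1a, 62.0 for Perm1, 55.9 for Tfam, 51.5 for the upstream TSS of Ppargc1a, 38.6 for Esrrg and 25.4 for Esrrb. Ranges of the control libraries overlapped among Esrra, Pprc1 and Ppargc1b, between the proximal Ppargc1a TSS and Perm1, between Perm1 and Tfam, and between Tfam and the upstream Ppargc1a TSS. The other neighbours in this order were separated in both control libraries. For comparison, the median over all genes with a TSS in a control peak was 62.4.

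**Figure D1:**
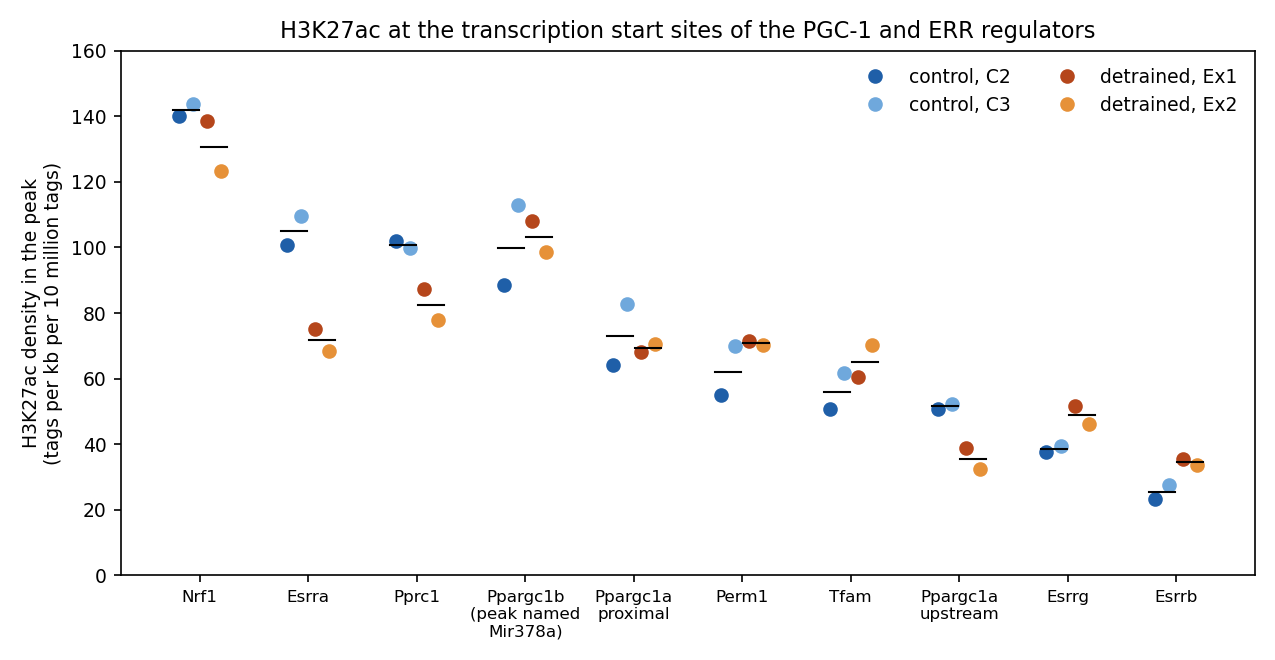
H3K27ac tag density (tags per kb per 10000000 tags, linear axis from 0) in the peak over each TSS of the 9 genes, ordered by control level; points are libraries and black lines are the geometric means of each group. Both detrained points lie below both control points at Nrf1, Esrra, Pprc1 and the upstream Ppargc1a TSS, and above them at Perm1, Esrrg and Esrrb.

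Over the 8 TSS peaks named for members and shared between the lists, the groups were separated at 6. The Ppargc1b TSS peak, which carried another name, is not among them, and its groups overlapped (log2 ratio 0.05). Detrained libraries were higher at 3 (Perm1, Esrrb and Esrrg) and lower at 3 (Esrra, Pprc1 and Nrf1). Among 10839 genes with a TSS in a shared peak, 22.7% were higher in both detrained libraries and 30.2% were lower. The median log2 ratio of detrained over control was 0.06 over the 8 member peaks, compared with -0.03 over all these genes. The member median was -0.06 without C2 and 0.24 without C3. A shared peak here is a control peak and a detrained peak that cover 50% or more of each other's length.

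Esrra encodes ERRα, the receptor through which PGC-1 proteins drive many respiratory genes. Its single peak covered the TSS (chr19:6920320-6923287 in control). The density was 101 and 109.7 in control (C2, C3) and 75.2 and 68.4 in detrained (Ex1, Ex2), the order kept below. Both detrained libraries were lower, with a log2 ratio of -0.55 ± 0.09 (SD between libraries, pooled over the groups of 2). However, the detrained peak was 1.56 times longer, 4621 bp against 2967 bp. Without the division by length the tags per 10000000 were 299 and 325 in control and 347 and 316 in detrained libraries, which overlapped, and the log2 ratio was 0.09. At this peak the groups were therefore separated in density, where the detrained peak was also longer, and not in tags. The control list held 1 further peak over the Esrra transcript, named Trmt112, and the detrained list none. A region without a listed peak is not a region without tags, so no totals over the transcript are compared. Over all 26432 shared peaks the density ratio had a Spearman correlation of -0.53 with the ratio of peak lengths, and the tag ratio one of 0.76. These are across peaks, which are not independent replicates, and length enters both measures.

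Pprc1 encodes PGC-1-related coactivator, the member of the family linked to growth signals. Its 1 peak lay over the TSS on chromosome 19 (46055685-46057824 in control). Density was 102 and 99.9 in control, against 87.2 and 78.0 in detrained. The detrained libraries were both lower, with a log2 ratio of -0.29 ± 0.08 (pooled SD, 2 libraries per group). The detrained peak was longer (2555 against 2139 bp), and the tags without length overlapped between groups, with a log2 ratio of -0.03.

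Nrf1 encodes nuclear respiratory factor 1, which binds promoters of respiratory chain genes and of Tfam. The peak over its main TSS (chr6:30046956-30049359 in control) had densities of 140.2 and 144 in control. In detrained mice they were 138 and 123, both below control by a log2 ratio of -0.12 ± 0.08 (pooled SD). Peak lengths were 2403 and 2363 bp, and tags without length were also lower in both detrained libraries. The difference at Nrf1 was the smallest of the 6 separated TSS peaks, and it kept its direction with groups separated on both scales. It rested largely on Ex2, since the log2 ratio was -0.04 without Ex2 and -0.20 without Ex1. A detrained peak 8.48 kb upstream of an internal Nrf1 TSS (32.4 pooled tags per 10000000) overlapped no control peak.

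Perm1 carried a control peak of 5839 bp that spanned its TSS and most of the gene (chr4:156215192-156221031). Its density was 55.1 and 69.9 in control and 71.4 and 70.4 in detrained. The detrained libraries were higher than both control libraries, but C3 was close to them and C2 was the low library, with a log2 ratio of 0.19 ± 0.17 (pooled SD). The ratio was 0.02 without C2 and 0.36 without C3. The detrained peak was shorter (5287 against 5839 bp). Tags without length overlapped between groups, at 321 and 408 per 10000000 in control and 377 and 372 in detrained (log2 ratio 0.04). The weaker peak 5.59 kb upstream had densities of 24.2 and 16.2 in control and 13.2 and 12.6 in detrained, a log2 ratio of -0.62 ± 0.29. In tags without length this was the only member pair at least 2-fold lower in detrained with groups separated, from 18.1 to 7.88 pooled tags per 10000000. At a peak this weak the spread between libraries of a group is understated.

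Tfam had 1 peak over its TSS (chr10:71237322-71239020 in control). Density was 50.6 and 61.7 in control and 60.6 and 70.2 in detrained, so the groups overlapped, with a log2 ratio of 0.22 ± 0.18. A stronger region 13.3 kb upstream of the gene had densities of 67.4 and 93.4 in control and 75.7 and 87.6 in detrained. The detrained libraries lay between the control libraries (log2 ratio 0.04 ± 0.26). The region was 5421 bp in control, where it held 435 pooled tags per 10000000. In detrained it was split into 2 peaks that together held 295, and with both counted the tags were lower in both detrained libraries (273 and 315) than in both control libraries (365 and 506). A further control peak of 5.88 pooled tags per 10000000 overlapped no detrained peak.

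Ppargc1a carried 14 peaks in control, the most of the 9 genes there, and 8 in detrained. In control, 2.43% of the 14784 genes named in the list had as many peaks, and in detrained 7.11% of 14382 genes. All 8 detrained peaks overlapped a control peak. Of the 14 control peaks, 4 overlapped none, and these were weak, with 7.69 to 17 pooled tags per 10000000. For comparison, 13104 of all 46988 control peaks overlapped no detrained peak, with a median of 14.5. Of the 6744 genes with such a peak, 804 had at least as many of them as Ppargc1a. The other 2 of the difference arose where 2 neighbouring control peaks corresponded to 1 longer detrained peak, at the upstream promoter and about 482 kb downstream.

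At the proximal Ppargc1a TSS, the start of the canonical transcript, density was 64.2 in C2 and 82.8 in C3, compared with 68.1 and 70.5 in detrained. The detrained libraries lay between the control libraries, with a log2 ratio of -0.07 ± 0.19 (pooled SD). The peak was longer in detrained (5212 against 3989 bp), and tags without length were higher in both detrained libraries, at 355 and 367 against 256 and 330 per 10000000. The sign of the difference at the CRE-bearing promoter thus depended on the scale.

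The upstream Ppargc1a promoter, from which exercise-responsive transcripts are known to start, showed a like dependence on the scale. In control it carried 2 peaks, 1563 bp over the TSS and 1458 bp further upstream, and in detrained a single peak of 6238 bp covered both and the gap between them. Tags per 10000000 summed over the region were 135 and 161 in control and 242 and 203 in detrained. Both detrained libraries were higher in tags. Per kb of called peak they were both lower, with densities of 44.7 and 53.4 in control against 38.8 and 32.6 in detrained. The 2 control peaks covered 3021 bp together, and the control tags in the rest of the detrained peak are not given in the tables.

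**Figure D2:**
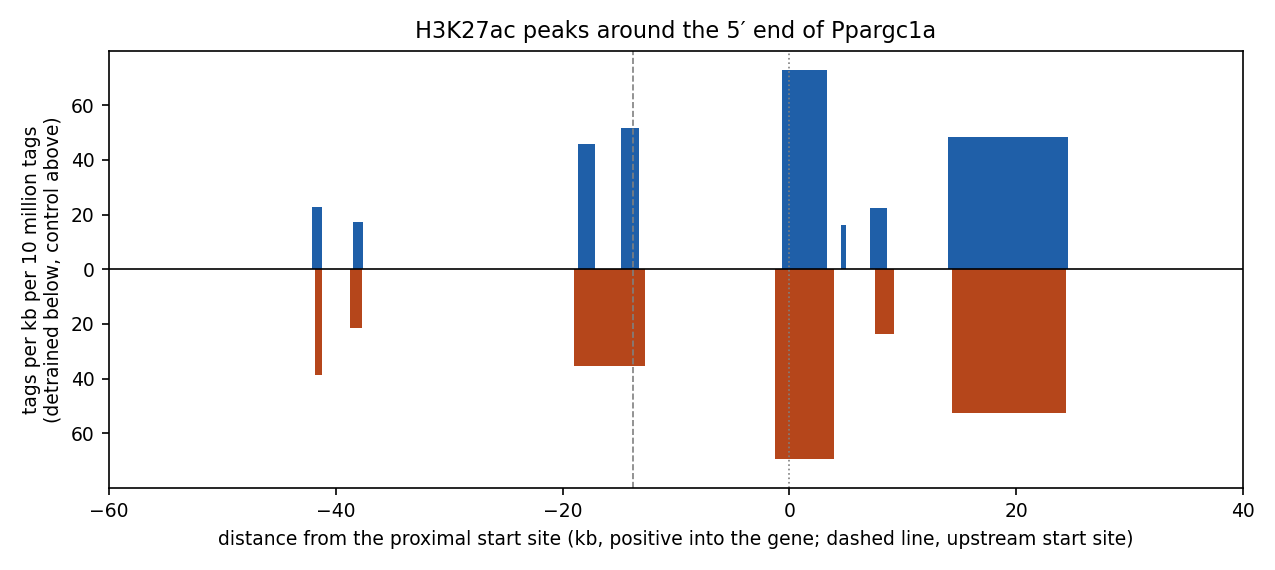
Peaks near the 5′ end of Ppargc1a in control (blue, above) and detrained (brown, below) by distance from the proximal TSS; bar height is the geometric mean density of the 2 libraries and bar width the peak, or slightly more for the shortest. At the upstream start site (dashed line) the 2 control peaks correspond to 1 detrained peak of 6238 bp with a lower density, and the small control peak 4.78 kb downstream of the proximal TSS has no detrained counterpart.

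Inside Ppargc1a, the longest member peak (chr5:51529375-51539964 in control, in an intron) carried the ERR element printed above. It held 518 and 534 pooled tags per 10000000 in the control and detrained lists. Density was 40.9 and 57.1 in control and 54.8 and 50.8 in detrained, so the groups overlapped (log2 ratio 0.13 ± 0.25). A weaker intronic peak 7.85 kb downstream of the proximal TSS likewise overlapped, at 20.2 and 24.7 against 26.2 and 21.5.

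Distal peaks named for Ppargc1a lay on both sides of the gene. The strongest intergenic peak, 513 kb downstream of the proximal TSS, had densities of 39.3 and 65.0 in control and 59.0 and 58.1 in detrained, which overlapped, although its tags were higher in both detrained libraries. Both detrained libraries were higher in density at the 2 peaks further upstream. The peak 27.9 kb upstream of the alternative TSS had 21.2 and 24.6 in control and 43.4 and 34.7 in detrained, a log2 ratio of 0.76 ± 0.19, the highest among member pairs. This ratio exceeded that of 99.8% of shared peaks, but the control peak was longer (949 against 631 bp) and tags without length overlapped between groups. The peak 24.2 kb upstream had 15.4 and 19.7 in control and 21.3 and 21.5 in detrained (log2 ratio 0.29 ± 0.18), and there tags without length were separated in the same direction. It is a weak peak, where the spread between libraries of a group is understated. At the region 482 kb downstream the tags were higher in both detrained libraries (71.5 and 82.5 against 40.7 and 53.0) and the density lower in both.

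Summed over the 8 regions found in both lists, Ppargc1a held 1036 and 1405 tags per 10000000 in control and 1504 and 1433 in detrained. The detrained libraries were above both control libraries in tags (log2 ratio 0.28). Per kb they lay between them, at 48.0 and 45.7 against 41.0 and 55.6 (log2 ratio -0.03), and the detrained peaks covered 31335 bp and the control peaks 25272 bp. C3 exceeded C2 at each of these regions, as it did in the sum of the muscle markers.

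Ppargc1b encodes PGC-1β, and its name was attached to 2 intergenic peaks in each list. The peak 16.2 kb upstream had densities of 24.6 and 34.6 in control and 30.4 and 32.7 in detrained, and that 30.4 kb upstream had 24.1 and 32.2 in control and 29.9 and 29.8 in detrained. At both, the detrained libraries lay between C2 and C3, with log2 ratios of 0.11 ± 0.25 and 0.10 ± 0.21. The Ppargc1b gene hosts the microRNA gene Mir378a, on chromosome 18 at 61397835-61397900, and all 10 control and 10 detrained peaks over the Ppargc1b transcripts were named for that microRNA. They fall outside the naming rule and are described here because 1 of them covers the Ppargc1b TSS. That peak, 8301 bp long in control, had densities of 88.4 and 113 in control and 108 and 98.5 in detrained, so the groups overlapped (log2 ratio 0.05 ± 0.19). It held 834 pooled tags per 10000000 in control and 850 in detrained. The 10 regions over the gene, 7 of them in both lists, together held 2465 and 3131 tags per 10000000 in control, against 2949 and 2692 in detrained. This sum counts a region unlisted in a group as having no tags there. Among the 7, both detrained libraries were lower in tags at 61365642-61370764, at 110 and 92.2 against 131 and 138 in control. At 61373555-61387260 they were lower per kb, at 39.1 and 34.4 against 39.2 and 44.2. The rest overlapped on both scales. At the TSS peak and the 2 intergenic peaks, the detrained libraries thus lay between the control libraries.

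Esrrg encodes ERRγ, a receptor enriched in oxidative fibers and known to promote oxidative and vascular gene programs. Its named peaks numbered 5 in control and 10 in detrained. The peak over 2 neighbouring RefSeq TSSs inside the longest transcript (chr1:187649913-187653242 in control) had densities of 37.7 and 39.6 in control and 51.7 and 46.2 in detrained. Both detrained libraries were higher, with a log2 ratio of 0.34 ± 0.09 (pooled SD). Peak lengths were close (3329 and 3434 bp), and tags without length were also higher in both (177 and 159 against 125 and 132 per 10000000). The direction therefore held on both scales. The other 3 one-to-one pairs overlapped between groups, at log2 ratios of -0.21, -0.15 and 0.02. At a further region 10.1 kb downstream of these TSSs, where the detrained peak was longer (2148 against 1024 bp), tags were higher in both detrained libraries (58.4 and 54.3 against 27.1 and 32.7) while the densities overlapped.

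The 5 additional Esrrg peaks in detrained mice overlapped no control peak, as did 7313 of all 40721 detrained peaks. Of the 4792 genes with such a peak, 95 had at least as many of them as Esrrg. Of these, 4 lay within 47.3 kb of intron (chr1:187904887-187952226), 46.1 to 92.6 kb upstream of the start of the canonical transcript, where the control list held no peak. They held 22.9, 85.7, 71.6 and 15.8 pooled tags per 10000000. Among the 7313 detrained peaks that overlapped no control peak, 0.889% held at least as many tags as the strongest of the 4 and 2.12% as many as the next. Both of these held more than the Esrrg intron peak 161 kb upstream of the same start, which both lists had and which held 59.3 in detrained. Summed per gene, 11 of the 4792 genes with such a peak, Esrrg included, had at least the 208.3 tags per 10000000 of Esrrg. A region without a listed peak is one that did not pass the authors' calling thresholds, and its control tags are not given, so no fold was computed.

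The 4 intronic regions together held 243 tags per 10000000 in Ex1 and 152 in Ex2. Ex1 was the higher library at each of them, and it was also the higher detrained library in the sum of endothelial markers (331 against 232) and of macrophage and leukocyte markers (259 against 231). Ex1 was likewise higher in the sums of skeletal muscle markers (1209 against 1153), adipocyte markers (115.8 against 101.5) and heart muscle markers (82.5 against 69.7). The adipocyte sum rested on 2 genes and the heart muscle sum on 1. Fibroblast sums were close (227.8 against 227.4), and the satellite cell sum was lower in Ex1 (50.9 against 55.9). The part of these in the Esrrg peaks was not tested. The name 9330162B11Rik was attached to 1 further control and 2 further detrained peaks over the Esrrg transcripts, which are not counted here.

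**Figure D3:**
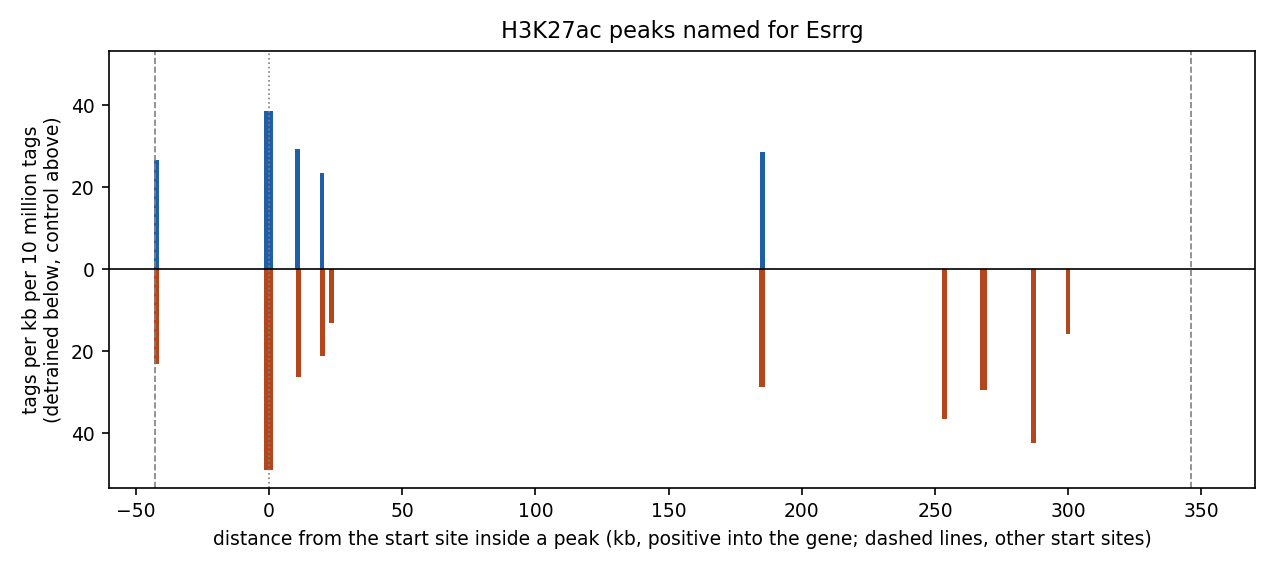
Peaks named for Esrrg in control (blue, above) and detrained (brown, below) by distance from the marked TSS (dotted line at 0); bar height is the geometric mean density of the 2 libraries, and peaks are drawn wider than they are so that they can be seen. The 4 peaks nearest to the canonical start site (right dashed line) appear in detrained alone, at mean densities of 15.8 to 42.4, and no control bar lies there.

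Esrrb encodes ERRβ, best known from stem cells and embryonic tissues, and it was the most weakly marked member. The peak over its first TSS (chr12:86360962-86362109 in control) had densities of 23.4 and 27.6 in control and 35.5 and 33.8 in detrained, so both detrained libraries were higher (log2 ratio 0.45 ± 0.12). It held 29 pooled tags per 10000000 in 1147 bp in control and 69.3 in 2010 bp in detrained, which made it the only member pair at least 2-fold higher in tags with groups separated. The opposite order was seen 76.9 kb downstream of the second, unmarked Esrrb TSS, at 34.3 and 24.9 in control and 24.4 and 23.98 in detrained (log2 ratio -0.27 ± 0.23). Peaks that overlapped in part about 61 kb downstream of that second TSS had 21.6 and 16.0 in control against 18.8 and 19.8. A control peak of 6.79 and detrained peaks of 13 and 23.4 pooled tags per 10000000 had no counterpart in the other list.

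Across all 21 shared pairs of the 9 genes, the groups were separated at 10, which is 47.6%, against 48.5% of all 26432 shared peaks. Both detrained libraries were higher at 5 pairs (23.8%, against 21.3% of all shared peaks) and lower at 5 (23.8%, against 27.2%). None was at least 2-fold apart with groups separated, compared with 0.0757% of all shared peaks. The share of member pairs that separated was thus near that of all peaks. Their log2 ratios ranged from -0.62 to 0.76 with a median of 0.09, and the 5th and 95th percentiles of all shared peaks were -0.46 and 0.40, with a median of -0.03. The median over members turned on the control library used, since it was -0.11 without C2 and 0.27 without C3. The groups were separated at 6 of the 8 pairs over a TSS. Over all genes with a TSS in a shared peak, 22.7% were higher and 30.2% lower. Among the 13 distal pairs, 4 were separated (30.8%). The share over all distal shared peaks was not computed, so the TSS and distal counts are not compared. Without the division by length, 7 of the 21 ratios had the opposite sign.

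**Figure D4:**
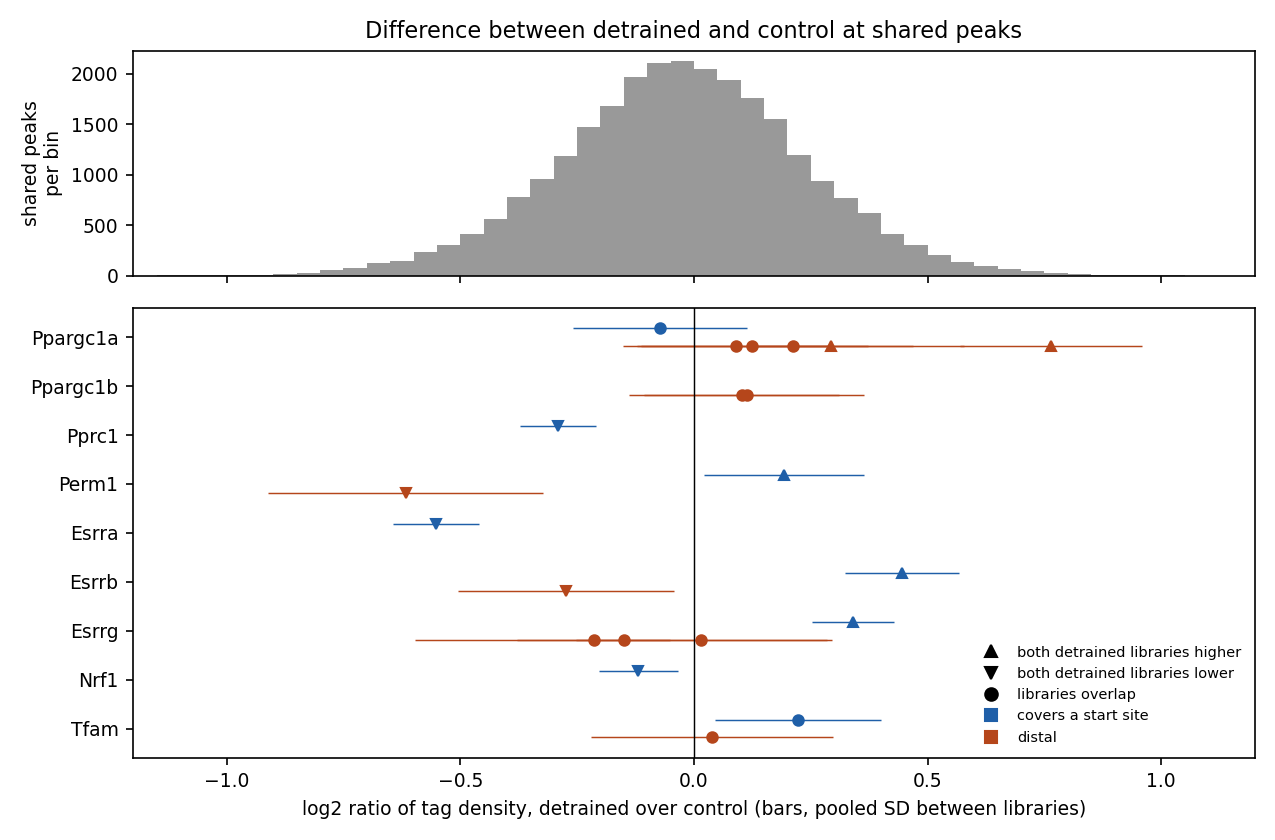
Upper panel, distribution of the log2 density ratio (detrained over control) over the 26432 shared peaks; lower panel, the 21 shared peaks of the 9 genes, with bars for the pooled SD between libraries. The member values run from -0.62 to 0.76 with a median of 0.09, beside -0.03 for all peaks, and TSS peaks (blue) fall on both sides of 0.

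In overlap of the lists, 27 of 33 control peaks of the members (81.8%) overlapped a detrained peak, against 72.1% of all control peaks. In the other direction it was 26 of 34 detrained peaks (76.5%), against 82.0% of all detrained peaks. The unmatched peaks belonged to Ppargc1a (4), Esrrb (1) and Tfam (1) in control and to Esrrg (5), Esrrb (2) and Nrf1 (1) in detrained. Over the Ppargc1b gene, 2 of the detrained peaks named for Mir378a (44.7 and 12.7 pooled tags per 10000000) overlapped no control peak, and 1 such control peak (9.5) overlapped no detrained peak.

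Summing each gene over its regions showed which members depended on peak extent. Per kb, both detrained libraries were lower for Esrra, Pprc1 and Nrf1, higher for Perm1 and Esrrb, and not separated for Ppargc1a, Ppargc1b, Esrrg and Tfam. In tags over the regions found in both lists, they were higher for Ppargc1a (log2 ratio 0.28), Esrrb (0.58) and Esrrg (0.36), lower for Nrf1 (-0.14) and Tfam (-0.42), and not separated for the others. Esrrb and Nrf1 were thus separated in the same direction on both scales. When peaks of a single list were added, the ratio reached 1.06 for Esrrg and 0.87 for Esrrb, which counts an unlisted region as having no tags and is no estimate of a fold.

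**Figure D5:**
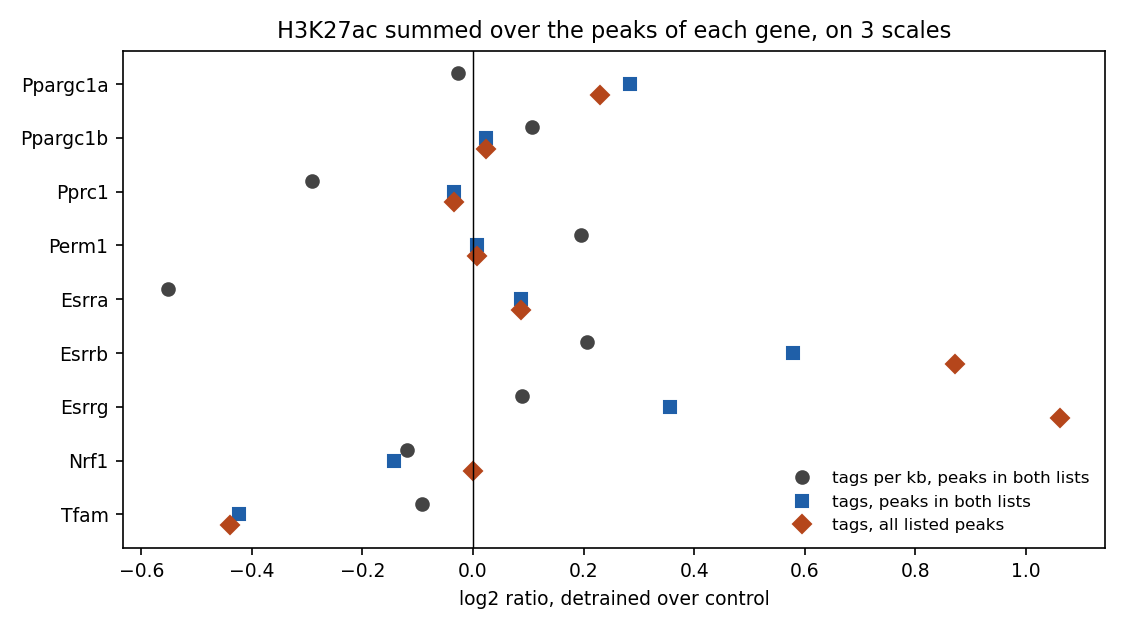
Log2 ratio of detrained over control for each gene, from tags per kb (circles) and tags (squares) over regions found in both lists, and tags over all listed peaks (diamonds). Esrra moves from -0.55 per kb to 0.09 in tags, and Esrrg from 0.09 per kb to 1.06 when its unmatched detrained peaks are counted.

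The partners and targets of these regulators were described from 4 fixed lists at their TSS peaks. Of 11 genes for expression and replication of mitochondrial DNA, 9 had a TSS in a peak of each list, all except Polrmt and Mterf1a. Of the 7 in a shared peak, both detrained libraries were higher at 2 and lower at 3, with a median log2 ratio of -0.01. Mterf3, a repressor of mitochondrial transcription, had the highest control density (114). Twnk, the mitochondrial helicase, had the lowest and the largest ratio, at 49.2 and 49.6 in control and 70.4 and 64.1 in detrained (0.44). Ssbp1, the mitochondrial single-stranded DNA-binding protein, had the smallest, at 104 in both control libraries and 73.3 and 77.8 in detrained (-0.46). The lengths differed in the opposite direction, 2309 against 1753 bp for Twnk and 1437 against 1743 bp for Ssbp1.

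All 14 nuclear partners of mitochondrial biogenesis had a TSS in a peak of each list. Of 13 in a shared peak, 2 were higher in both detrained libraries and 2 lower, with a median of -0.03. Mef2d, a muscle transcription factor that acts on Ppargc1a, had the highest control density (172), and the fatty acid receptor gene Ppard the lowest (43.3). Yy1, a zinc finger factor that recruits PGC-1α, had the largest ratio, at 101 and 112 in control and 148 and 129 in detrained (0.38). The Yy1 peak was shorter in detrained (3788 against 5483 bp), with fewer pooled tags per 10000000, 521.8 against 582.4. The smallest was at Rxra, the common partner of nuclear receptors, at 112 and 132 in control and 76.0 and 73.6 in detrained (-0.70), where the detrained peak was 13440 bp and the control peak 7132 bp, and pooled tags were higher in detrained, 1004.5 against 869.5.

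Among 14 regulators and corepressors of the coactivators, 13 had a TSS in a peak of each list, Camk4 being in neither. Of 12 in a shared peak, 5 were higher and 3 lower, with a median of 0.09. Ncor1, a corepressor that opposes PGC-1α in muscle, had the highest control density (157), and the acetyltransferase gene Kat2a the lowest (37.5). Prkaa1, which encodes a catalytic subunit of AMP-activated kinase, had the smallest ratio, at 68.5 and 57.1 in control and 45.1 and 39.1 in detrained (-0.57). The Prkaa1 peak was longer in detrained (3117 against 1757 bp), with more pooled tags per 10000000, 130.7 against 110.2.

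The 21 ERR and PGC-1 target enzymes all had a TSS in a peak of each list. Of 20 in a shared peak, 3 were higher and 4 lower in both detrained libraries, with a median of -0.02. The respiratory complex I gene Ndufs1 had the highest control density (146). Cox7a1, a muscle subunit of cytochrome oxidase, had the lowest and also the largest ratio, at 49.4 and 50.6 in control and 72.4 and 70.0 in detrained (0.51). Its detrained peak was shorter (2663 against 4509 bp), and its pooled tags per 10000000 were lower in detrained, 189.3 against 225.1. Acadm, the medium-chain acyl-CoA dehydrogenase and a classical ERR target, had the smallest, at 92.8 and 120 in control and 61.1 and 61.5 in detrained (-0.78). The Acadm peak was 5163 bp in detrained and 2859 bp in control, and its pooled tags were higher in detrained, 316.3 against 303.2. The counts over all 4 lists are descriptions, and the shares of all genes given above for TSS peaks are their background.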

How the data were processed

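H3K27ac ChIP-seq of quadriceps was measured in 2 control and 2 detrained libraries, with 1 input per group. Per the study's methods, reads were aligned to mm10 with Bowtie keeping uniquely mapped reads, and HOMER called 1 peak list per group on pooled libraries against that group's input. The deposited pooled signal is tags in the peak per 10000000 tags. For each library the deposited log2 values are shrunken (regularized log) and normalized within each table. The fold over input of each peak and its p-value and adjusted form, as deposited, served only to define stricter peaks, and the lowest log2 fold listed was 1.78 in control and 1.77 in detrained.

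The columns C2 and C3 were assigned to the control group and not to a numbered mouse. Tags per library were estimated as the pooled tags shared in proportion to library total and 2 to the power of the log2 value, so the difference between libraries of a group is understated at weak peaks. The tables hold no counts, so no counting interval was computed, and the SDs are of the log2 density between the 2 libraries. The members and gene lists were chosen with earlier results of these data known. For each member all peaks were described, and from each list the genes of highest and lowest control density and of largest and smallest ratio at a shared TSS peak were named, except 1 that is not reported here. TSSs came from curated RefSeq transcripts of GRCm38.p6, since the annotation of a peak goes by its centre. For 93.5% of control and 93.4% of detrained peaks with a curated transcript, the deposited TSS distance matched that assembly within 2 bp. Promoter sequences were in the RefSeq table for 13 of the 16 member TSSs, all identical to the genome, which gave the others. The density and comparison steps were tested on simulated data with equal peak lengths in both groups and values that were not shrunken. That test does not cover differing peak lengths, shrinkage or separate normalization. Computations ran in Python 3.11.15 with pandas 2.3.3, scipy 1.17.1 and numpy 2.4.6, and plots were drawn with matplotlib 3.10.9.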

Additional observations from a re-analysis of the deposited data

How the results depend on the processing

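Of the 67 member peaks, 34 were at least 4-fold over input with an adjusted p under 0.001 in the deposited tables, and 29 instead of 53 then overlapped the other list. The number of shared pairs with separated groups was 10, and it was 5 with those stricter peaks and 5 when each peak had to be covered by 80% or more, settings that left 13 and 10 pairs. Without peak length, 2 pairs instead of 0 were at least 2-fold apart with groups separated (Esrrb and Perm1). Leaving out 1 library in turn gave medians of the log2 ratio of -0.11 to 0.27 over all shared pairs and -0.12 to 0.25 over the 18 pairs outside promoters by the deposited annotation (which include peaks over a TSS), with C2 left out at the lower end and C3 at the upper end. The count with separated groups is not given for these settings, because a group left with 1 library separates more readily. The median over members of the gene-level log2 ratio was -0.03, and it was -0.14 to 0.13 with 1 library left out, the highest without C3.

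In tags without length, 2 of the 8 ratios at shared TSS peaks turned, the proximal Ppargc1a TSS to 0.31 and Esrra to 0.087, and so did the region of the upstream Ppargc1a TSS, from -0.46 to 0.58. The gene-level ratio of Ppargc1a turned to 0.28, or 0.23 over all listed peaks, that of Esrra to 0.087 on both scales, and that of Nrf1 to 0.00069 over all listed peaks. Other alternatives (any one-to-one overlap, normalization to tags in listed peaks, centring on all shared peaks, a pseudocount of 5 tags, peaks over a curated TSS) kept the sign of each median they were run on or moved it by less than the spread between libraries. With peaks named Mir378a added, the median over all shared pairs was 0.04. Peaks of any name within 50 kb of a member TSS numbered 100, and those over the member transcripts 68, and no median was computed for these. The settings by curated TSS, Mir378a name and transcript span were chosen after seeing the data. No paired analysis was possible because no test between groups was made and the numbers of the control columns (2 and 3) are not those of the labels (1 and 2). Tags outside listed peaks are not in the tables, so the control level at the Esrrg intron is not known.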
